A study of Homo sapiens with 3 samples.

Results

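Solute carriers are the membrane proteins, named SLC plus a family number, that move amino acids, sugars, acids, metals and ions across the cell's membranes. Members were all RefSeq coding (NM) transcripts whose gene symbol is SLC, a number, a letter and a number, without the mitochondrial SLC25A family. This gave 274 transcripts of 173 genes, out of 17868 NM transcripts of 11487 genes that could be named. The rule used symbols alone and no measured value. SLC8B1, a sodium/calcium exchanger of the inner mitochondrial membrane, stayed in because its symbol is not SLC25A.

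The RNA came from SW480, an established line of human colon adenocarcinoma cells, grown in McCoy's medium with serum, L-glutamine and pyruvate. In 1 library the cells carried the Sigma hairpin TRCN0000074936 against RBMS1 (shRBMS1), and in 2 libraries a control hairpin (shControl), all with RNA taken 48 hours after transduction. It is not stated whether both shControl libraries hold the same hairpin or came from separate cultures, and the off-target effects of a single RBMS1 hairpin cannot be told apart from loss of RBMS1. RBMS1 is an RNA-binding protein known to bind A+U-rich stretches in the 3′ untranslated region (UTR) of messenger RNAs, AUAUA among them.

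All values are log2 fold changes, shRBMS1 over shControl, from the authors' deposited table, which holds a single value for each transcript. Where a gene has several NM transcripts, their median, computed here, stands for the gene. With 1 knockdown library and no value per library, there is no replicate check, error or test for any difference below, and the depth is unknown. Whether a large value rests on few reads is therefore not known. The file does not name the direction, which was taken from RBMS1 lying below 0. The authors' deposited table gave −1.36 and −1.62 for the RBMS1 transcripts, 39.1% and 32.5% of control, and these values set the sign and so do not check it. The table names 8 of 10 epithelial markers, 2 of 10 leukocyte markers, CD68 and LYZ, and 0 of 9 fibroblast and 0 of 7 endothelial markers. Epithelial markers ran from −2.33 to 0.10 and the leukocyte pair from −0.68 to −0.54 by the gene medians of the authors' deposited table; their part in the carriers' values was not tested.

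Carriers work together in a few circuits. Heteromeric amino acid transporters pair a light chain of the SLC7 family with a heavy chain of SLC3, and bring in leucine, cystine or arginine. Many of their genes are known targets of ATF4, the transcription factor of the amino acid response, which binds a sequence with the core TGATGNAA. Cell acidity and volume are set by sodium/proton exchangers (SLC9), bicarbonate carriers (SLC4) and cation-chloride cotransporters (SLC12), and lactate leaves through monocarboxylate transporters (SLC16).

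Sequence matches to a motif known for the protein that was knocked down are shown first, as a description of sequence, not of binding. They are AUAUA sites, written ATATA on the transcript strand, from the 3′ UTRs of carriers that lie low and of carriers that lie high. Each is the site nearest the stop codon in the GENCODE 29 transcript (hg38), with 10 bases on each side, and capitals mark the motif.
SLC7A11, chr4:138171812-138171836 on the minus strand: atttttattcATATAttttagcata
SLC12A2, chr5:128186981-128187005 on the plus strand: aatttcatccATATAtcctctttta
SLC30A5, chr5:69130052-69130076 on the plus strand: gattttctgtATATAaaactggttt
SLC1A3, chr5:36686573-36686597 on the plus strand: tgatttttttATATAagttaaagag
SLC9A8, chr20:49890360-49890384 on the plus strand: tgcatagaagATATAaaaatacgca
SLC12A8, chr3:125083137-125083161 on the minus strand: cacccaaaagATATAtagagtgaaa
The first 3 genes were chosen from those with gene medians below 0 and the last 3 from those above 0. The SLC12A2 site is from its 27-exon transcript, which was itself at 0.36 per the authors' deposited table.

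The motif was about as common among carriers as among all genes. Of 165 carriers with an annotated 3′ UTR, 96 (58.2%) held ATATA, against 6574 of 11188 genes (58.8%). Only the transcript strand was searched, copies may overlap, and longer UTRs hold more of them: the median UTR was 2266 bases in carriers with a site and 849 bases in carriers without. Carriers with a site had a median of 0.0071 and carriers without one a median of −0.052, against 0.013 and −0.0097 over all genes. Of the carriers with a site, 5 lay at −1 or below and 4 at 1 or above, and of the 69 without, 6 lay at −1 or below and 5 at 1 or above. SLC7A11, whose 3′ UTR of 7859 bases holds 54 copies, many of them overlapping within runs of TA repeats, was at −0.93 by the authors' deposited table. SLC7A2, with 20 copies in 5427 bases, was at −0.23 per the authors' deposited table. SLC38A1 has 3 rows linked to the same annotated transcript, with a UTR of 5907 bases and 10 copies. These rows were at −0.26, −0.0021 and 0.31 by the authors' deposited table, and the annotation does not separate them. The SLC38A1 gene median of 0.11 is from a transcript with a UTR of 402 bases and 0 copies. Above 0, SLC2A13 with 27 copies in 5005 bases was at 0.24 per the authors' deposited table. A transcript of SLC4A7 with 16 copies in 4041 bases was at 1.19 there. Transcripts with long UTRs and many copies were thus found on both sides of 0, with SLC7A11 and SLC7A2 below it. These are examples, not a count.

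The second set of sequences holds the ATF4 core TGATGNAA, sought on both strands in RefSeq promoter windows (GRCh38.p14). A window runs from 250 bases before to 50 bases after a start of a gene, which need not be its outermost start. RefSeq windows were matched for 139 of the 173 genes. Of these genes 9 held the motif (6.47%), against 245 of 9527 measured genes (2.57%) and 1217 of all 27305 RefSeq genes (4.46%). Counted by window, since a gene can have several, 9 of 212 carrier windows held it (4.25%). The share was 263 of 13880 windows of measured genes (1.89%) and 1270 of all 35116 RefSeq windows (3.62%). Amino acid carriers made up 6 of the 9, which is 6 of the 23 amino acid carriers with a window, and 3 of 116 other carriers held it. The 6 are given on the strand of the gene with the motif in capitals, written from the other strand in SLC1A4 and SLC3A2. Those of SLC1A5, SLC1A4, SLC38A1 and SLC3A2 lie inside the gene's span, at starts other than its outermost one.
SLC1A5, chr19:46784895-46784920 on the minus strand: ggaagtggcTGATGCAAgctgtccag
SLC1A4, chr2:64989383-64989408 on the plus strand: ggctcccgtTTGCATCAtctccagcc
SLC1A3, chr5:36596359-36596384 on the plus strand: ggaaatgacTGATGCAAagcagggtt
SLC7A1, chr13:29595665-29595690 on the minus strand: gcgcactgcTGATGAAAcctggcgcc
SLC38A1, chr12:46266504-46266529 on the minus strand: agacccgaaTGATGAAAagggatcag
SLC3A2, chr11:62881727-62881748 on the plus strand: caggactccTTACATCAgctcc
Their gene medians from the authors' deposited table were −0.60 for SLC1A5, −0.25 for SLC1A4, 1.12 for SLC1A3, −0.52 for SLC7A1, 0.11 for SLC38A1 and 0.15 for SLC3A2. Carriers with this core thus lay on both sides of 0, and a match is a description of the sequence, not of binding.

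As a group the carriers lay close to 0. The median of the 173 genes was −0.014 with quartiles of −0.28 and 0.22, beside 0.0034 for all 11487 genes with quartiles of −0.26 and 0.22. Of the carriers 91 (52.6%) lay below 0, against 49.6% of all genes, and 39 lay within 0.1 of 0. The 38 SLC25A genes, for comparison, had a median of 0.037.

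At the ends, values of at least 1 above or below 0 on the log2 scale are called past 1. Of the carriers 11 (6.36%) were past 1 on the low side, against 4.06% of all genes, and 9 (5.20%) on the high side, against 3.62%. Together these are 20 genes or 11.6%, against a background of 7.68%, and 10 of the 20 are ion carriers. Ion carriers beyond 1 were 10 of 30 (33.3%), and carriers of all other classes 10 of 143 (6.99%), near the background. Over single transcripts, 25 of the 274 were past 1 on the low side and 25 on the high side, against 7.93% and 7.77% of all NM transcripts, and 15.7% for both directions. Of the 20 genes, 12 rest on 1 transcript, and in 7 of the other 8 at least 1 transcript lay short of 1 or on the other side of 0.

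**Figure D1:**
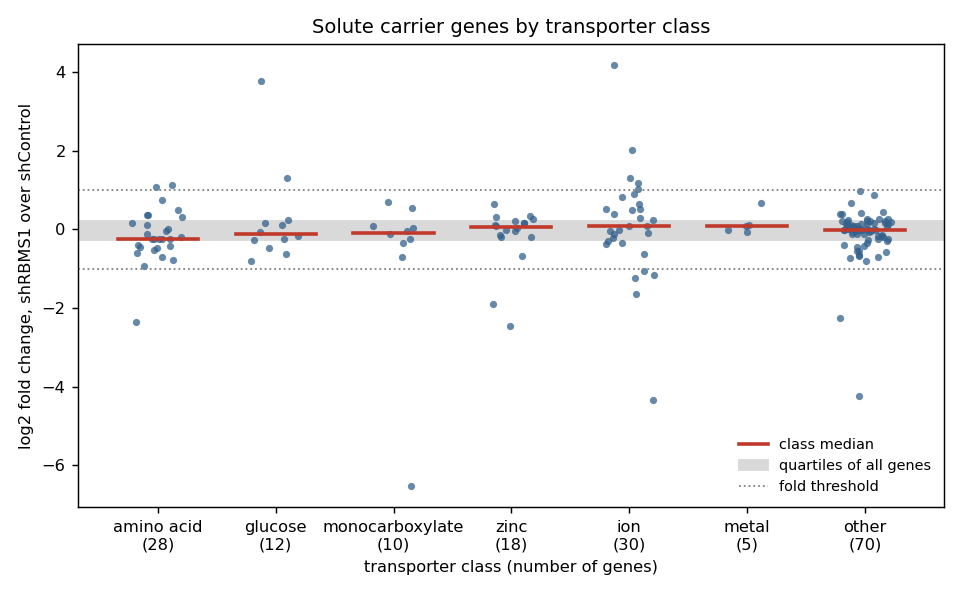
Each point is a solute carrier gene, placed by transporter class (number of genes below) at its log2 fold change, shRBMS1 over shControl. Red bars are class medians, the grey band spans the quartiles of all genes and dotted lines mark 1 and −1; the amino acid median of −0.23 lies lowest, and the ion class has 5 genes past each dotted line.

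Amino acid carriers had the lowest median of the 7 classes. Their 28 genes had a median of −0.23 with quartiles of −0.46 and 0.19, 18 of 28 lay below 0, and 1 was past 1 on the low side and 2 on the high side. The SLC7 family, cationic amino acid carriers and light chains, lay to one side: 7 of 7 genes were below 0, with a median of −0.52 and a range from −0.93 to −0.23. In SLC7A6 and SLC7A8, its only genes with several NM transcripts, each transcript was below 0 as well. None of the 7 reached 1.

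Within SLC7, SLC7A11 was lowest. It encodes xCT, the light chain that exchanges glutamate for cystine and feeds glutathione synthesis, on chromosome 4 at 138164097 to 138242349. Its only NM transcript was at −0.93 by the authors' deposited table, 52.3% of control, and 4.72% of all genes lay lower. SLC7A8, the LAT2 light chain for neutral amino acids, followed with a gene median of −0.78 and transcripts from −1.11 to −0.68 per the authors' deposited table. SLC7A7, a light chain of the y+L system that exports cationic amino acids, was at −0.71 by the authors' deposited table. SLC7A1, the arginine and lysine importer CAT1, was at −0.52 per the authors' deposited table, and SLC7A5, the leucine carrier LAT1 on chromosome 16 at 87830023 to 87869507, was at −0.48. SLC7A6 and SLC7A2 were nearest to 0, with gene medians of −0.26 and −0.23 by the authors' deposited table.

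The heavy chain did not lie with its light chains. SLC3A2 (CD98hc), which carries SLC7A5, SLC7A7, SLC7A8 and SLC7A11 to the surface, had a gene median of 0.15. Its 4 NM transcripts stood at −0.59, 0.024, 0.28 and 0.47 per the authors' deposited table, so 3 of 4 were above 0. Of the 10 listed chains of heteromeric transporters 6 were measured, with a median of −0.60, and 5 of these were below 0.

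The glutamine and glutamate carriers differed among themselves. Of 8 listed glutamine carriers 6 were measured, with a median of −0.13, 4 below 0 and none past 1. SLC1A5 (ASCT2), the sodium-dependent glutamine exchanger, had a gene median of −0.60 or 66.1% of control, and its 3 transcripts ran from −0.83 to −0.048 by the authors' deposited table. SLC38A1 and SLC38A2, sodium-coupled importers of glutamine and other neutral amino acids, lay at 0.11 and 0.0020 as gene medians per the authors' deposited table. The 8 measured SLC38 genes had a median of −0.017, with 4 on either side of 0; the highest was SLC38A9, the lysosomal arginine sensor of mTORC1, at 0.74 with transcripts at 0.25 and 1.23 by the authors' deposited table. SLC1A3 (EAAT1), a glutamate and aspartate importer, was highest in the class at 1.12, with transcripts at 0.60, 1.12 and 3.59 per the authors' deposited table. All 3 of its transcripts were above 0, although 1 was short of 1.

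Other amino acid carriers stood further out on single transcripts. SLC6A9, the glycine transporter GLYT1 on chromosome 1 at 43996483 to 44031462, was at −2.35 per the authors' deposited table, or 19.6% of control. The taurine carrier SLC6A6 was at −0.23 and the creatine carrier SLC6A8 at 0.31 as gene medians per the authors' deposited table. SLC6A8 has near-identical pseudogene copies elsewhere in the genome and its transcripts ran from −0.39 to 0.80 per the authors' deposited table, so its value is uncertain. SLC43A2 (LAT4), an amino acid uniporter, was at 1.09 by the authors' deposited table, while SLC43A1 (LAT3) had transcripts at −0.63 and 1.34. These SLC6 and SLC43 carriers lay on both sides of 0.

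**Figure D2:**
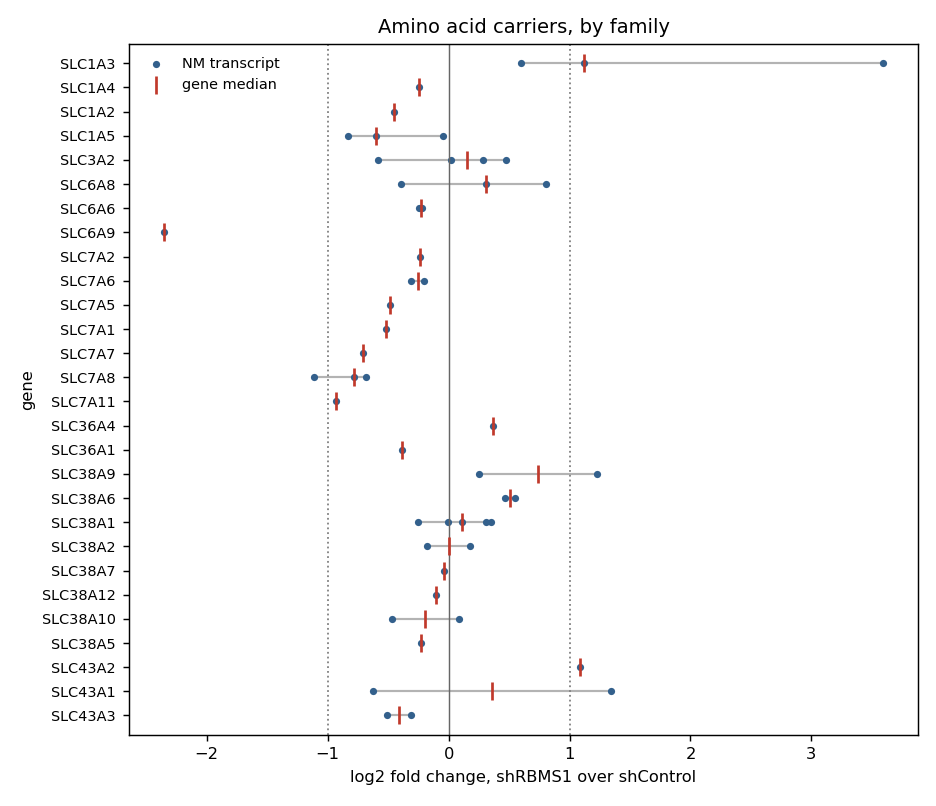
Each row is an amino acid carrier gene, ordered by family; points are NM transcripts on the log2 fold change axis, shRBMS1 over shControl, red ticks are gene medians and dotted lines mark 1 and −1. All 7 SLC7 genes sit left of 0, from −0.93 to −0.23, while SLC3A2 and the SLC38 genes straddle it.

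ATF4-responsive carriers, a list with known members of the amino acid response, had 8 of 9 genes measured. Their median was −0.50, with 6 below 0, 1 past 1 on the low side and 0 on the high side. SLC7A11, SLC7A5 and SLC7A1 among them are SLC7 genes, and SLC3A2, SLC1A5 and SLC38A2 are on lists above, so these groups overlap. The ATF4-responsive list was drawn up with earlier results of these data known and is not independent of them. Genes of the same pathway that are no carriers included ATF4 itself at 0.15, the asparagine synthetase ASNS at −0.52, the mTORC1 inhibitor DDIT4 at −0.46 and glutamine synthetase, GLUL, at −0.48, as gene medians per the authors' deposited table. Transcripts ran from −0.95 to 0.22 in ASNS, from −0.019 to 0.32 in ATF4 and from −0.87 to −0.082 in GLUL per the authors' deposited table. Of 7 measured genes on the list of such pathway genes, 6 lay below 0, against 49.6% of all genes. None was past 1 in either direction, and their median was −0.24.

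Glucose carriers lay near 0 at their main members. The class of 12 genes had a median of −0.12, 7 below 0, and 0 past 1 on the low side and 2 on the high side. SLC2A1 (GLUT1), the basal glucose importer of most cancer lines, was at −0.16 by the authors' deposited table, 89.6% of control. SLC2A3 (GLUT3), a high-affinity importer, was at −0.28 per the authors' deposited table, 82.4% of control. With the lactate exporter SLC16A3 at −0.052, all 3 hypoxia-responsive carriers were below 0 and within 0.5 of it as gene medians per the authors' deposited table.

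The 2 glucose carriers past 1 have limits of their own. SLC2A8 (GLUT8), an intracellular sugar carrier on chromosome 9 at 127397169 to 127407898, had transcripts at 2.56 and 5.03 per the authors' deposited table and a gene median of 3.79. Its non-coding transcript, outside the rule, was at 0.79 by the authors' deposited table, so the 3 rows of this gene were all above 0 but far apart. SLC2A14 (GLUT14), on chromosome 12 at 7812514 to 7891196, was at 1.31 per the authors' deposited table. It is a near-identical copy of SLC2A3, its neighbour at 7919230 to 7936187, and how reads were divided between them is not given, so both values are uncertain. The myo-inositol carrier SLC5A3 was lowest in the class at −0.81 and SLC5A6, a carrier of biotin and pantothenate, was at 0.13 by the authors' deposited table. Around glucose use, hexokinase 2 (HK2) was at −0.29, lactate dehydrogenase A (LDHA) at −0.25 and TXNIP, which promotes removal of glucose carriers from the surface, at 0.40 as gene medians per the authors' deposited table. None of the 6 measured genes of that list reached 1.

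Among monocarboxylate carriers, the measured lactate carriers lay near 0, and the class held an extreme value. The 10 SLC16 genes had a median of −0.086, with 6 below 0 and 1, SLC16A5, past 1. SLC16A1 (MCT1), the main proton-coupled lactate and pyruvate carrier, had transcripts at 0.015 and 0.16 by the authors' deposited table. SLC16A3 (MCT4), the lactate exporter of glycolytic cells, had transcripts at −0.20 and 0.097 per the authors' deposited table. Of 4 listed proton-coupled lactate carriers only these were measured, with a median of 0.019. Their surface chaperone basigin, BSG, had a gene median of −0.21 by the authors' deposited table. SLC16A5, a less studied member on chromosome 17 at 75087385 to 75110149, stood alone at −6.54 per the authors' deposited table, 1.07% of control, on 1 transcript. The next lowest of the family, SLC16A13, was at −0.71 and the highest, the carnitine and creatine carrier SLC16A9, at 0.70 by the authors' deposited table.

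Zinc carriers were centred on 0, with few exceptions. The 18 genes had a median of 0.065, with 8 below 0, and 2 past 1 on the low side and 0 on the high side. The 7 exporters of the ZnT type (SLC30) had a median of 0.037 and the 11 importers of the ZIP type (SLC39) a median of 0.093. SLC30A5 (ZnT5), which loads zinc into the early secretory pathway, was at −2.47 per the authors' deposited table, or 18.1% of control, on 1 transcript on chromosome 5 at 69094014 to 69131069. Its dimer partner SLC30A6 had transcripts at −0.16 and 0.58 per the authors' deposited table, and the related SLC30A7 transcripts at −0.49 and 0.096. The surface zinc exporter SLC30A1, a known target of the zinc-sensing factor MTF1, was at 0.10 by the authors' deposited table.

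Among ZIP importers, SLC39A11 had the lowest gene median, −1.89, from transcripts at −4.48 and 0.70 per the authors' deposited table. These have nearly the same annotated length, 2752 and 2737 bases. Of 8 listed LIV-1 importers, which carry a histidine-rich stretch, 6 were measured, with a median of 0.065. These 6 lay between −0.13 for the ER carrier SLC39A7 and 0.66 for the intestinal importer SLC39A4, as gene medians per the authors' deposited table. SLC39A14, SLC39A10, SLC39A8 and SLC39A6 lay between these. SLC39A13 shares the LZT-Hs synonym of listed members such as SLC39A10 but was not on the list. It was lower than the 6, at −0.18 by the authors' deposited table. Metallothioneins, which bind zinc, were not of one direction: MT1F had a gene median of 1.19 with its lower transcript at −0.12, MT1X was at 0.18 and MT2A at −0.38 per the authors' deposited table. They are short genes with close copies, and their values are uncertain for that reason.

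Ion carriers had the widest spread of the classes between quartiles. Their 30 genes had a median of 0.086 with quartiles of −0.34 and 0.61. On each side 5 of them were past 1, and 14 (46.7%) within 0.5 of 0, against 77.4% of all genes. The SLC9 exchangers had a median of 0.41, with 5 of 8 genes above 0. The intestinal surface exchangers SLC9A3 (NHE3) and SLC9A2 (NHE2) were at 1.31 and 0.52 by the authors' deposited table. The non-coding genes named after SLC9A3 are SLC9A3-AS1 and SLC9A3-OT1, at 0.75 and 0.40 per the authors' deposited table, and whether counting used strand is not given. SLC9A8 (NHE8), an exchanger of the Golgi and apical surface on chromosome 20 at 49812828 to 49892242, was at 2.01 by the authors' deposited table, and its non-coding transcript, outside the rule, at 1.97. SLC9A7, an exchanger of the trans-Golgi network, was at −0.037 per the authors' deposited table. SLC9B2 had a gene median of 1.03 from transcripts at −0.29 and 2.36 by the authors' deposited table.

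Bicarbonate carriers lay mostly above 0 by gene medians, with 4 of 5 SLC4 genes above. The family median of 0.49 is the gene median of SLC4A3, whose transcripts lay far apart, so it is uncertain. Another of the 4 also had transcripts on both sides of 0. SLC4A7 (NBCn1), a sodium-bicarbonate importer that removes acid, had both transcripts above 0, at 0.48 and 1.19 per the authors' deposited table. The anion exchanger SLC4A2 was at −0.022 by the authors' deposited table. SLC4A3 had the widest gap of any carrier, with transcripts at −4.32 and 5.29 per the authors' deposited table, so its gene median of 0.49 describes neither. Of 8 listed acid extruders of the surface 5 were measured, with a median of 0.64. By gene medians 4 of these lay above 0 and 1 below, and 1 was past 1 on each side.

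Cation-chloride cotransporters set cell volume and chloride. All 4 measured carriers of the sodium-potassium-chloride (NKCC) and potassium-chloride (KCC) type had gene medians below 0, with a median of −1.10 over the list. SLC12A7 (KCC4) rests on 1 transcript, at −0.62 by the authors' deposited table. SLC12A4 (KCC1) had transcripts at −2.22 and 0.12 per the authors' deposited table. SLC12A2 (NKCC1), on chromosome 5 at 128083766 to 128189677, had a gene median of −4.34 that hides a split. Per the authors' deposited table, its 27-exon transcript was at 0.36 and its 26-exon transcript, with 3591 in place of 3639 coding bases, at −9.03. The longer form was thus slightly above 0. SLC12A8, whose transport function is debated, was highest of all carriers at 4.19 on 1 transcript by the authors' deposited table, on chromosome 3 at 125082644 to 125212748.

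Regulators of these carriers lay nearer to 0. The kinases WNK1, STK39 (SPAK) and OXSR1 (OSR1), which act on cation-chloride cotransporters, had gene medians of −0.35, −0.10 and 0.10 per the authors' deposited table. The exchanger scaffolds NHERF1 and NHERF2 were at 0.16 and −0.33 as gene medians per the authors' deposited table. The sodium pump, which builds the gradient that sodium-coupled carriers use, was at −0.30 for its beta subunit ATP1B1 and −0.25 for ATP1B3 per the authors' deposited table. Of the 36 partner genes listed over all classes 29 were measured: 20 lay below 0, and MT1F was past 1, on the high side.

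**Figure D3:**
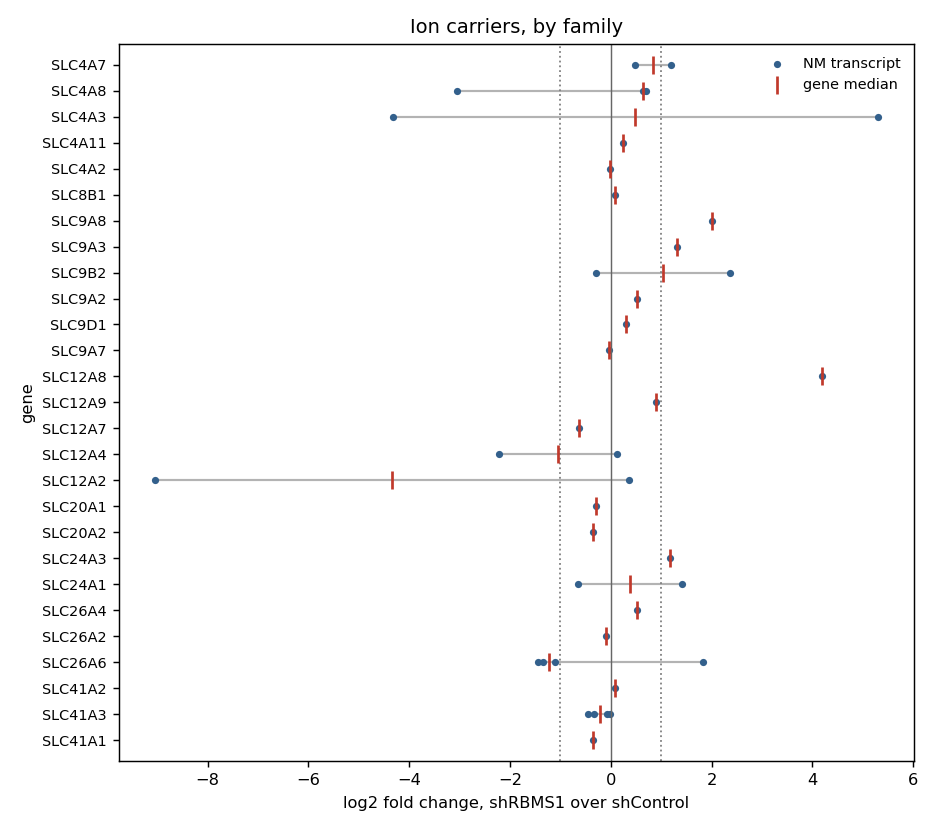
Each row is 1 of 27 ion carrier genes shown, ordered by family; points are NM transcripts on the log2 fold change axis, shRBMS1 over shControl, red ticks are gene medians and dotted lines mark 1 and −1. SLC12A2 has transcripts at −9.03 and 0.36 and SLC4A3 at −4.32 and 5.29, while SLC9A8 lies at 2.01 on 1 transcript.

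The remaining carriers were quieter. The 22 genes of SLC35, a family that includes the nucleotide-sugar carriers of the Golgi and ER, had a median of 0.045, 8 below 0 and none past 1. They ran from −0.70 for SLC35B3 to 0.97 for SLC35G1 as gene medians per the authors' deposited table. The 3 sugar-phosphate exchangers (SLC37) were all below 0; among them SLC37A4, the glucose-6-phosphate carrier of the ER, had a gene median of −0.81 from transcripts at −2.04 and 0.42 per the authors' deposited table. Of 5 metal carriers, SLC11A2 (DMT1), the proton-coupled iron importer, was highest at 0.68, and the iron exporter ferroportin, SLC40A1, was at −0.064 as gene medians per the authors' deposited table. SLC19A1, the folate carrier, was at 0.013 and SLC23A2, an ascorbate carrier, at −0.13 per the authors' deposited table. The neighbours SLC22A4 and SLC22A5, carriers of ergothioneine and carnitine on chromosome 5, were at 0.13 and −0.16 by the authors' deposited table.

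Past 1 among these remaining carriers were SLC44A2 and SLC22A23, both lower. SLC44A2, a choline-like transporter on chromosome 19 at 10602455 to 10644557, had transcripts at −8.53 and 0.031 per the authors' deposited table. Their coding lengths are 2115 and 2121 bases. SLC22A23, an orphan carrier, was at −2.26 on 1 transcript by the authors' deposited table. The 11 genes of families numbered above SLC52 ran from −0.72 for SLC67A1 to 0.89 for SLC61A1 as gene medians per the authors' deposited table.

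Transcripts of the same carrier often disagreed. Of the 67 carriers with several NM transcripts, 31 (46.3%) had transcripts more than 1 apart, against 48.4% of 4185 such genes in all, and 44 (65.7%) had transcripts on both sides of 0, against 65.9%. Gaps of this kind were therefore about as common among carriers as elsewhere. In 9 sets, GENCODE 29 links rows of a carrier to the same transcript, so the annotation used here does not separate them, and 3 of these sets were still more than 1 apart. Those were SLC39A9, SLC37A4 and SLC50A1, the last a sugar carrier with linked rows at −3.94 and 0.35 by the authors' deposited table. The least changed transcript stood close to 0 in SLC44A2, SLC12A4 and SLC61A1, at 0.031, 0.12 and −0.0015 per the authors' deposited table.

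**Figure D4:**
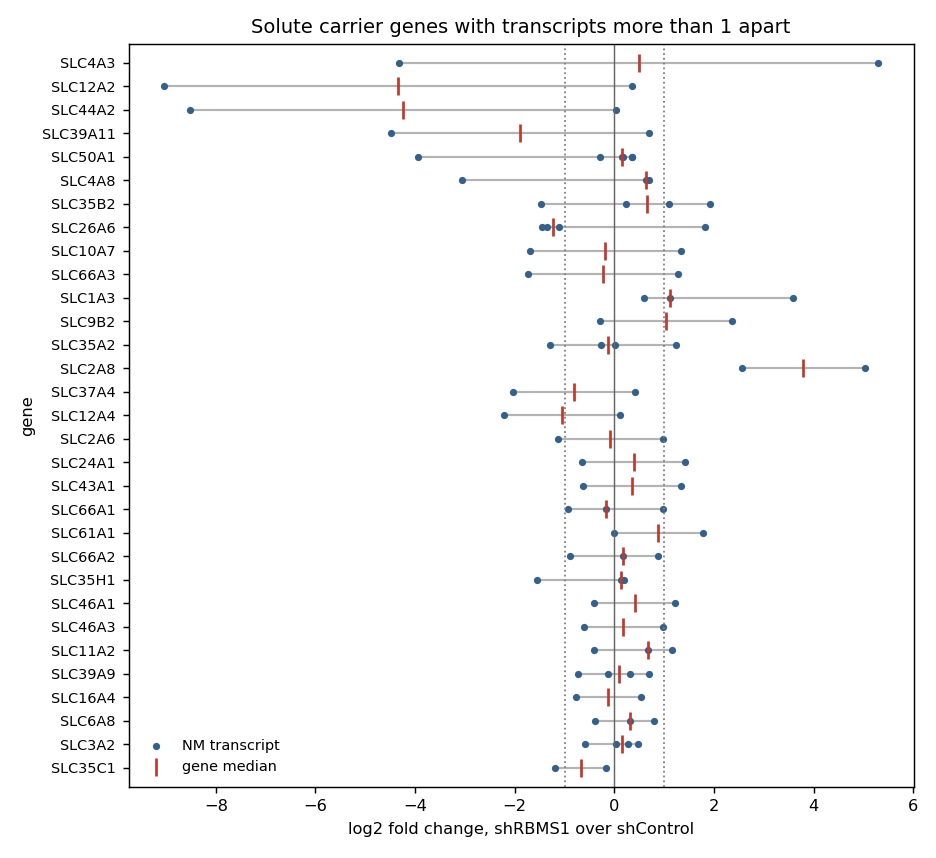
Rows are the 31 solute carrier genes with NM transcripts more than 1 apart, widest at the top; points are transcripts on the log2 fold change axis, shRBMS1 over shControl, red ticks gene medians and dotted lines 1 and −1. SLC4A3 spans −4.32 to 5.29, and SLC2A8 and SLC1A3 are carriers with all transcripts above 0.

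Non-coding rows at carrier genes, which the rule leaves out, add context. SLC6A6 has a non-coding transcript at −8.17 by the authors' deposited table, far from its coding transcripts at −0.24 and −0.22. SLC3A2 and SLC35F5 have non-coding transcripts at −1.87 and −4.12 per the authors' deposited table. The antisense gene SLC16A1-AS1, beside the lactate carrier, had transcripts at −1.92 and 0.20 by the authors' deposited table. Partial copies of SLC7A5 exist, and the pseudogene SLC7A5P2 was at 0.17 per the authors' deposited table, so part of the SLC7A5 reads may be counted elsewhere.

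GC content was only weakly related to the values. Over 166 carriers with an annotated transcript, Spearman's rho with GC content was −0.15, beside −0.17 over 11272 genes; genes share libraries and are not independent, and no test was made. With transcript length rho was 0.0016 for carriers and −0.14 for all genes. Median GC content was 52.6% in amino acid, 52.8% in ion and 42.6% in zinc carriers. After subtraction of the median of genes of like GC content, the amino acid median was −0.16 and the zinc median −0.049.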

How the data were processed

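Total RNA was sequenced in 3 libraries of SW480 cells, 1 shRBMS1 and 2 shControl, grouped by the hairpin in the labels. Per the labels' protocols, ScriptSeq v2 libraries were made from RNA depleted of ribosomal RNA by Ribo-Zero Gold. Per the submitters' processing notes, STAR 2.5, Cufflinks and Cuffdiff were used with hg38; their roles, any filters and the handling of the control pair are not stated. The file deposited by the authors holds log2 fold changes for 20104 RefSeq transcripts and no level or count, so depth and precision per library are unknown.

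Per the file headers the column is a log fold change without a base. Base 2 was taken from value spacing: 20 transcripts lay a distance of 1 from a value seen at least 3 times, against 4 and 5 at ln 2 and log10 of 2 (tolerance 1.5e-05). RefSeq's GRCh38.p14 gene table named 19818 transcripts (98.6%), 17868 of 17994 NM. An NM row that GENCODE 29 alone links to SLC29A1, at 0.07 in the authors' deposited table, was left out. RefSeq symbols follow the current table, so SLC67A1 was formerly SLC22A18 and SLC35H1 formerly SLC35C2.

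Each gene was given the median over its NM transcripts. Classes followed SLC family numbers; 11 genes in families outside the prepared list were put with the remaining carriers. Past 1 in either direction was counted without a test, beside the same share over all genes. Transcript features came from GENCODE 29, which covers 264 of the 274 transcripts. Members and lists were chosen with earlier results of these data known. Genes were named by a rule, which took RBMS1, the 10 highest and 10 lowest carriers, the 3 highest and lowest of 5 classes, and the measured members of 8 prepared lists (59 carriers in all), and allowed any other member in the account of its family. The prepared lists were ATF4-responsive and hypoxia-responsive carriers, heteromeric chains, glutamine carriers, proton-coupled lactate carriers, acid extruders, cation-chloride cotransporters and LIV-1 importers, and beside them 36 partner genes. Some genes are counted in group values but not reported here by name. The promoter search for TGATGNAA was chosen after seeing the data. Alternatives were other thresholds, other values per gene, centring, GC bins and removal of extreme transcripts. Scripts were tested on simulated data; Python 3.11.15, numpy 2.4.6, pandas 2.3.3, scipy 1.17.1 and matplotlib 3.10.9 were used.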

Additional observations from a re-analysis of the deposited data

How the results depend on the processing

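No paired analysis was possible because the groups share fewer than 2 replicate numbers and the file holds no value per library. For the same reason no library could be left out. A median was taken as moved when it shifted by at least 0.1, and a count when it changed by more than 1.5 times; of 89 alternatives to counts and medians 74 did neither. The number of carriers higher and lower by the threshold was 19 and 26 at 0.58, 3 and 6 at 2, and 9 and 11 at 1. Among the 106 genes with 1 NM transcript 6 were lower, a count that also falls because fewer than the 173 carriers were counted. The glucose median of −0.12 became −0.016 with the least changed and with the longest transcript, −0.25 among genes with 1 transcript, 0.13 over every transcript and 0.25 as a mean. The monocarboxylate median of −0.086 became 0.023 with the least changed transcript and −0.66 as a mean. The zinc median of 0.065 became −0.049 after subtraction of the median of genes of like GC content and −0.18 as a mean, and the remaining carriers had a mean of −0.11. The ion median of 0.086 became −0.0025 with the longest transcript and −0.0059 over every transcript, the metal median of 0.083 became −0.0092 with the least changed transcript, and that of the remaining carriers, −0.0019, became 0.012 there. The value of each class other than amino acid thus changed sign in at least 1 setting, whereas the amino acid median stayed within 0.1 of −0.23 in all settings tried. With the least changed transcript, 5 named genes past 1 changed sign: SLC12A2 to 0.36, SLC12A4 to 0.12, SLC39A11 to 0.70, SLC44A2 to 0.031 and SLC9B2 to −0.29. With the longest transcript SLC12A2, SLC12A4, SLC44A2 and SLC9B2 took the same values, and without transcripts beyond 6 SLC12A2 and SLC44A2 did. These changes follow from which transcript was kept. Centring on the median of all genes, 0.0034, changed none of the 59 named genes by 0.1.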
